A study of Mus musculus with 1 sample.

Results

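The genes described here are the subunits and homologs of the NADPH oxidase, 9 genes of the 19321 that the array names. They were chosen by gene symbol, with earlier results of these data known, and each had 1 probe. The phagocyte oxidase is represented by 5 of them, Cybb, Cyba, Ncf1, Ncf4 and Rac2. The 4 others, Nox1, Nox4, Noxo1 and Duox2, belong to oxidases of non-phagocytic tissues.

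The study concerned RAW264.7, a macrophage-like line of mouse origin, and its uptake of added peroxiredoxin, a peroxide-degrading enzyme. Its design sets parental cells against lines mutagenised with ENU and sorted for loss of that uptake. Here 1 array of parental cells was analysed, in a single colour, from cells cultured in RPMI-1640 with 10% FCS; mutant arrays were not analysed here. With 1 array there are no replicates and no test was possible, which bounds how precisely any value here is known.

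An NADPH oxidase moves electrons from cytosolic NADPH across a membrane to oxygen and so makes superoxide, from which hydrogen peroxide forms. In phagocytes the catalytic chain Cybb (gp91phox, also called NOX2) sits in the membrane with Cyba (p22phox), while cytosolic subunits such as Ncf1 and Ncf4 and the GTPase Rac wait apart and join them when the cell is stimulated. Peroxiredoxins reduce the hydrogen peroxide that follows. Other members of the family serve epithelia, kidney, thyroid and the inner ear, in part with partner proteins of their own.

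Signal is the median pixel intensity of a spot in the Cy5 scan, in arbitrary units, with no background subtracted. It was read against 2 limits. The blank limit, 22.98, is the mean plus 2 SD of the blank spots. The chemoreceptor limit, 55.8, was set at the 95th percentile of the 1221 probes for olfactory, vomeronasal and taste receptors. These were taken to be mostly silent in a macrophage line, which was not tested. Of their 1210 genes, 451 (37.3%) passed the blank limit. Over all 19321 named genes the median signal was 40.1, 72.8% passed the blank limit and 42.7% passed the chemoreceptor limit. Signal depends on the probe as well as on the transcript, so probes were read against the limits, and where levels of different probes stand side by side they describe this array and give no order of transcripts. In a bulk culture, fewer cells that hold a transcript and less of it in each cell cannot be told apart.

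All 5 phagocyte subunits passed both limits (5 of 5, exact Clopper-Pearson 95% interval 47.8 to 100%), and 1 of the 4 non-phagocyte genes passed the blank limit (25.0%, interval 0.631 to 80.6%) and 0 of 4 the chemoreceptor limit (interval 0 to 60.2%). The phagocyte probes read 987 to 8522 with a median of 2789, and the non-phagocyte probes read 18.3 to 25.2 with a median of 20.8, under the blank limit, beside 40.1 for all named genes. Each phagocyte reading was thus over the higher limit and each non-phagocyte reading under it. The intervals treat genes as draws and cover no difference between arrays. At the blank limit both intervals hold the 72.8% of all genes. At the chemoreceptor limit that of the phagocyte group lies above the 42.7% of all genes and that of the non-phagocyte group holds it. The members and this limit were chosen with earlier results of these data known, and the 5 subunits belong to the same complex. The comparison is therefore a description and no test.

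**Figure D1:**
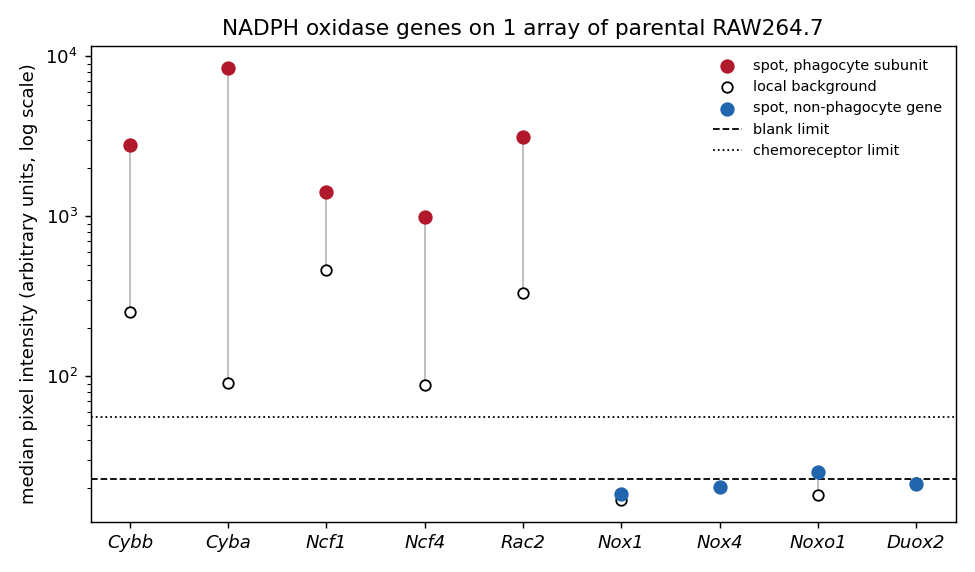
Spot median intensity (filled points) and local background (open points) of the 9 genes on the 1 array, on a log axis in arbitrary units, with the blank limit (dashed, 22.98) and the chemoreceptor limit (dotted, 55.8). The 5 phagocyte subunits lie at 987 or more, and the 4 non-phagocyte genes lie between 18.3 and 25.2.

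Both subunits of the membrane pair gave strong signal. Cybb (probe M300001403), the flavin and heme-binding chain through which the electrons pass, read 2789 against a local background of 252, which is 121 times the blank limit. Cyba (probe M200000165), the partner that stabilises Cybb and docks the organiser protein, read 8522 against a local background of 91.5, or 371 times the blank limit. Both spots stood clear of their surroundings, at 11.1 and 93.1 times the local background. The multiples depend on the background correction: with local background subtracted they were 432 for Cybb and 1436 for Cyba times the limit of that setting, and with normexp, which models the background and adds an offset, 38.5 and 126 times. The authors' deposited table, a scaled form of the same readings, lists 1345 for Cybb and 4130 for Cyba.

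The cytosolic subunits were over both limits as well. Ncf1 (probe M400000244), the organiser p47phox whose phosphorylation starts assembly, read 1422, or 61.9 times the blank limit. Its local background was 462, and the spot read 3.08 times that value. Ncf4 (probe M300008736), p40phox, which binds a phosphoinositide of the phagosome membrane, read 987 over a local background of 88.0, or 43.0 times the blank limit.

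Rac2 (probe M200000747), the haematopoietic Rac GTPase that completes the active complex, read 3152 over a local background of 331, or 137 times the blank limit. Its ubiquitous relative Rac1 read 2924, or 127 times the limit, whereas Rac3, best known from brain, read 40.9 and lay between the limits. Rac transcripts are alike in sequence, and binding of one to the probe of another was not tested. Rac2 also works outside the oxidase, and without it 4 of 4 phagocyte subunits passed both limits, with a median of 2106. For the 3 cytosolic subunits the multiple of the limit was higher with local background subtracted, at 164 for Ncf1, 153 for Ncf4 and 481 for Rac2, and lower with normexp, at 15.1, 14.2 and 42.7.

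None of the 3 catalytic genes among the non-phagocyte members passed the blank limit. Nox1 (probe M300007630), the catalytic chain of colon epithelium, read 18.3, or 0.80 times the limit. Nox4 (probe M400001293), the constitutively active oxidase known from kidney and vessel wall, read 20.4, or 0.89 times the limit. Duox2 (probe M400001547), the dual oxidase that supplies peroxide for thyroid hormone synthesis, read 21.3, or 0.92 times the limit. The local backgrounds were 16.9, 20.3 and 21.6, so that the spot was 1.08, 1.00 and 0.98 times its surroundings. For the Duox2 probe the platform's gene identifier was not in the mouse gene table used and no accession was given, so its identity rests on the platform symbol. The Nox4 probe carries no accession either, but its identifier matched.

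These 3 readings lay inside the spread of the blank spots, which carry no probe. Of the 2736 blanks, 3.44% read lower than Nox1, 45.0% lower than Nox4 and 67.4% lower than Duox2. Within the same block of the array, 106 of 120 blanks read at or above Nox1, 93 of 96 at or above Nox4 and 44 of 96 at or above Duox2. A low reading can come from a probe that responds poorly as well as from a scarce transcript, and which applies was not tested.

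Noxo1 (probe M200007976), the organiser that takes the place of Ncf1 in the Nox1 complex, was the non-phagocyte member over the blank limit. It read 25.2 over a local background of 18.2, or 1.09 times the blank limit and 0.45 times the chemoreceptor limit. Of all blanks 99.5% read lower, and 0 of the 96 blanks in its block reached it. Of 1210 olfactory, vomeronasal and taste receptor genes, 28.7% read as high as Noxo1 or higher. The authors' deposited table lists 2 for Noxo1, where its lowest value is 1, and it has an empty cell for Nox1, Nox4 and Duox2.

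**Figure D2:**
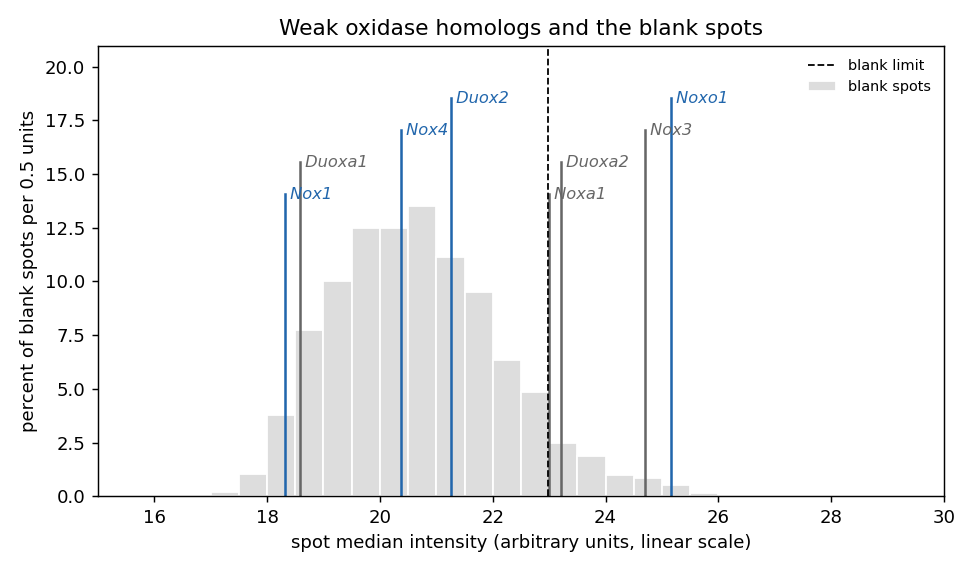
Distribution of the blank spots (grey bars, percent of blanks per bin of 0.5 units) with the signals of the weakest oxidase genes as vertical lines, members in blue and further family genes in grey, and the blank limit dashed. Nox1, Nox4 and Duox2 fall within the blanks at 18.3 to 21.3, and Noxo1 lies in their upper tail at 25.2.

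Further genes of the non-phagocyte family also lay under the chemoreceptor limit. Nox3, the oxidase of the inner ear, read 24.7, Noxa1, the activator of the Nox1 complex, read 22.99, and the Duox maturation factors Duoxa2 and Duoxa1 read 23.2 and 18.6. Duox1, the dual oxidase known from thyroid and airway, read 51.6, or 2.25 times the blank limit, on a spot 1.25 times its local background of 41.2. With the 4 members this makes 9 genes, of which 5 passed the blank limit (55.6%, interval 21.2 to 86.3%) and 0 the chemoreceptor limit, with a median of 23.0. Noxa1 and Duoxa2 were barely over the blank limit, at 1.0004 and 1.01 times it, and did not pass the limit set from the blanks of their own block, at 0.97 and 0.98 times it. By that block limit, which 73.9% of all named genes passed, 3 of the 9 were over, namely Noxo1, Nox3 and Duox1. In 3 other settings, run on these 9 genes after their values were seen, 2 were over, Noxo1 and Duox1: with normexp, with local background subtracted and at the 99th percentile of the blanks.

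Duox2, Duoxa2, Duoxa1 and Duox1 follow each other on chromosome 2 with 0 other protein-coding genes between neighbours. Their readings in that order were 21.3, 23.2, 18.6 and 51.6, and 0 of these 4 passed the chemoreceptor limit. Among the phagocyte subunits Ncf4 and Rac2 both lie on chromosome 15, with 10 protein-coding genes between them, and both passed the chemoreceptor limit.

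**Figure D3:**
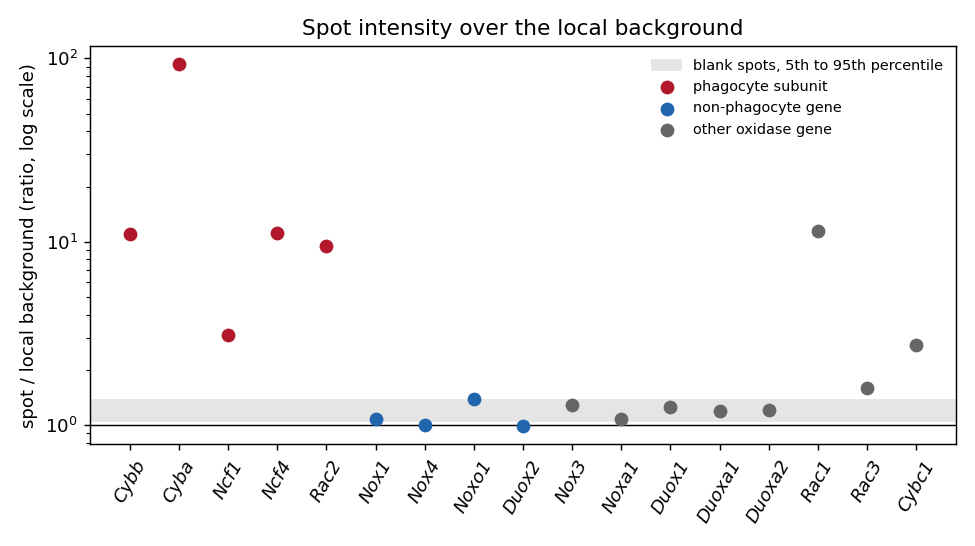
Ratio of spot intensity to local background (log axis) for the 9 genes and 8 other oxidase genes, with the 5th to 95th percentile of the blank spots shaded (1.05 to 1.37). The phagocyte subunits lie at 3.08 or more, whereas Nox1 at 1.08 lies within the shaded band, Nox4 at 1.00 and Duox2 at 0.98 lie below it and Noxo1 at 1.38 lies just above it.

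The contrast of each spot with its surroundings was read in the same way. Blanks had a median ratio to local background of 1.20. Among the phagocyte subunits the ratio ran from 3.08 for Ncf1 to 93.1 for Cyba, and all 5 exceeded the 95th percentile of the blanks, 1.37. Of the 4 non-phagocyte genes, Noxo1 at 1.38 exceeded it. Among all named probes 54.2% did, with a median ratio of 1.45. Local background was not independent of spot signal: across the 20690 named probes their log2 values had a Pearson correlation of 0.90, a description of probes on the same array. Spots around the weak members were not uniformly dark. Of the 8 spots next to each, 6 for Nox1, 5 for Nox4, 7 for Noxo1 and 5 for Duox2 were over the blank limit, and the brightest neighbour of Duox2 read 3235. Over the array 72.8% of named genes passed that limit by their highest probe, whereas the neighbours are adjacent spots of any kind. Whether such neighbours are particular to these genes was not tested.

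The promoters are shown for the membrane pair and for the 2 catalytic homologs that share Cyba as partner, since these are genes of like function on opposite sides of the limits. The last 120 bases before the annotated start are given 5′ to 3′ on the gene's strand, from RefSeq on build GRCm38.p6. Capitals mark matches on either strand to GAGGAA, the letters of a PU.1 site, to the promoter box CCAAT, to GGGCGG, which Sp1 binds, or to the promoter box TATAAA. Cybb lies at chrX:9469325-9469444 (minus strand), Cyba at chr8:122432941-122433060 (minus), Nox1 at chrX:134111855-134111974 (minus) and Nox4 at chr7:87246529-87246648 (plus).
Cybb: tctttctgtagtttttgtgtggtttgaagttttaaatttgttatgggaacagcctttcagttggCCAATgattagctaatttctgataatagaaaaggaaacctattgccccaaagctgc
Cyba: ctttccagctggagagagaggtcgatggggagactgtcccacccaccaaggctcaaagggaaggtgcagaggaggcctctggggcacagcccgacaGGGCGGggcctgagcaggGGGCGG
Nox1: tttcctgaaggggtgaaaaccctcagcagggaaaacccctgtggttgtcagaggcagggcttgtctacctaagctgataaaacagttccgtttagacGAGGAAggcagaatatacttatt
Nox4: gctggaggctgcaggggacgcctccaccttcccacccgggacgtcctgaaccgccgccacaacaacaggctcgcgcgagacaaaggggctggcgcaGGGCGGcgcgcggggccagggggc

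Motifs were counted over the whole 300-base window, 250 bases before the start and 50 after it, which the table held for 7 of the 9 genes, 3 phagocyte and 4 non-phagocyte. GAGGAA occurred in 2 of these 7, Cybb and Nox1, and in 28.3% of all 32851 promoters. In Nox1 it begins 23 bases before the start, and in Cybb it lies on the opposite strand, just after the start and outside the bases shown. CCAAT occurred in 2 of 7, Cybb and Duox2, against 37.4% of all, and in Cybb it begins 56 bases before the start. GGGCGG occurred in 4 of 7, Cyba, Ncf1, Nox4 and Noxo1, against 35.7%, and TATAAA in 0 of 7 against 13.6%. Each motif but the last occurred on both sides of the split between phagocyte and non-phagocyte genes. Base composition divided the genes in another way: the windows of Cybb and Nox1 were 35.3% and 38.0% G and C, that of Noxo1 was 80.3%, and the median of all promoters was 52.7%. A match is a description of letters and does not show that a factor binds.

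The 6 lists of genes around the oxidase gave its setting. Among 13 other subunits and partners, 12 passed the blank limit and 6 the chemoreceptor limit (46.2%, interval 19.2 to 74.9%), a share close to the 42.7% of all genes. The 13 count again Nox3, Noxa1, Duox1, Duoxa1 and Duoxa2, described above and all under the chemoreceptor limit, which lowers the share. The 6 were Rac1, Rap1a at 524 and Rap1b at 2160, small GTPases of which Rap1a copurifies with the phagocyte cytochrome, Cybc1 at 321, the chaperone needed for Cybb protein, Poldip2 at 406, a partner of Nox4, and Sh3pxd2a. The last gene, an organiser-like scaffold, had probes on either side of the chemoreceptor limit at 121 and 48.4. Hvcn1, the proton channel that balances the oxidase's charge, had no named probe and was not analysed here.

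Of 12 regulators of Rac, 12 passed the blank limit and 9 the chemoreceptor limit (75.0%, interval 42.8 to 94.5%), with a median of 184. Vav1, the haematopoietic exchange factor, read 575, its relatives Vav2 and Vav3 lay between the limits at 24.5 and 37.6, and Arhgdib, the haematopoietic inhibitor that holds Rac in the cytosol, read 1402. The exchange factor Dock2 had probes at 296 and 32.0. Bcr had probes at 24.8 and 22.1, or 1.08 and 0.96 times the blank limit. With the lowest probe of each gene 11 of the 12 regulators passed the blank limit. With local background subtracted and with normexp, 10 passed the limit of that setting. Of 12 kinases and lipid enzymes of oxidase activation, 11 passed the blank limit and 10 the chemoreceptor limit (83.3%, interval 51.6 to 97.9%). Prkcd, a protein kinase C that phosphorylates Ncf1, read 821, Pla2g4a, the phospholipase that releases arachidonate, read 1427, and Pik3c3, which makes the phosphoinositide bound by Ncf4, read 270. Prkca had probes on either side of the chemoreceptor limit, at 69.7 and 39.5. Prkcb lay between the limits at 26.0, and Prkcz at 22.3 was under the blank limit. At the chemoreceptor limit the interval of the kinase list lay above the 42.7% of all genes and that of the Rac regulators began just above it. The Rac count includes Prex1, at 93.4 on a spot 1.12 times its local background of 83.6. The kinase count includes Prkca, whose higher probe was 1.22 times its local background of 57.4. Both ratios were under the 95th percentile of the blanks, 1.37, and counts without these genes were not made. Both lists were drawn up with earlier results of these data known.

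Of 13 genes listed as receptors that trigger the oxidase, 13 passed the blank limit and 9 the chemoreceptor limit (69.2%, interval 38.6 to 90.9%). Of all named genes 72.8% and 42.7% did, and the interval holds the 42.7%. The activating Fc receptors Fcgr1 and Fcgr3 read 1369 and 440, and the integrin chain Itgb2, which pairs with Itgam to bind complement-coated particles, read 512. The list also counts Fcgr2b, an inhibitory Fc receptor and so no trigger, whose reading of 310.1 is the list median. The 4 between the limits were C5ar1, the receptor of complement C5a, at 48.7, Ptafr, that of platelet-activating factor, at 37.0, the formyl peptide receptor Fpr2 at 27.8 and the Fc receptor Fcgr4 at 27.2. Fpr1, another formyl peptide receptor, had no named probe and was not analysed here.

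Of 8 enzymes that act on superoxide and peroxide, 6 passed the blank limit (75.0%, interval 34.9 to 96.8%) and 4 the chemoreceptor limit (interval 15.7 to 84.3%), shares near the 72.8% and 42.7% of all genes. Mitochondrial Sod2 read 2699, cytosolic Sod1 457, catalase 281 and Gpx4, which reduces lipid peroxides, 1810, while extracellular Sod3 lay between the limits at 52.1. The granulocyte peroxidases Mpo and Epx, which use the oxidase's peroxide in neutrophils and eosinophils, were not over the blank limit at 18.6 and 18.3. Of 11 transcription factors known for the oxidase genes, 10 passed the blank limit and 7 the chemoreceptor limit (63.6%, interval 30.8 to 89.1%). Beside them stand the 72.8% and 42.7% of all genes, and the interval holds the 42.7%. Spi1 (PU.1) read 858, Irf8 370, Elf1 345 and Irf1 122, and Hoxa9 was not over the blank limit at 18.2.

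**Figure D4:**
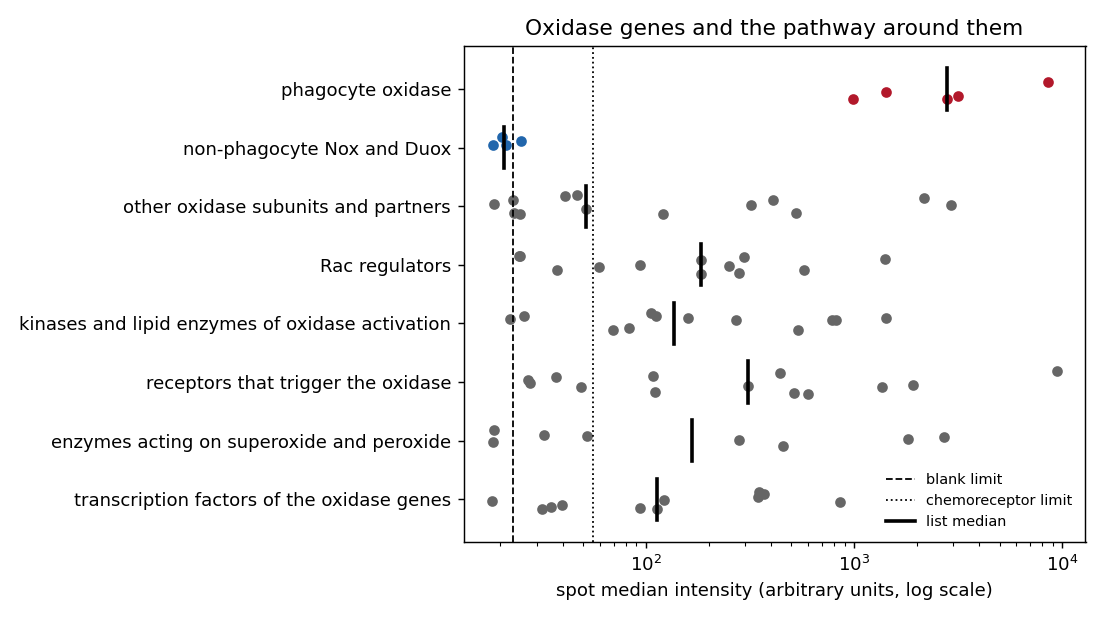
Highest-probe signal of each measured gene (points, log axis, arbitrary units) in the member groups and 6 lists around the oxidase, with list medians as bars and both limits. The phagocyte group has a median of 2789 and the non-phagocyte group 20.8. The list medians run from 51.6 for partners to 310.1 for the receptor list, which includes the inhibitory Fcgr2b.

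The labelled cell type and the tissues in which the non-phagocyte genes are known were read from marker lists. The counts stand beside the 72.8% of all named genes over the blank limit and the 42.7% over the chemoreceptor limit. All 8 macrophage markers passed the blank limit and 7 the chemoreceptor limit, among them Csf1r at 642, Adgre1 at 205 and Cd68 at 6442; Mertk, named after its value was seen, lay between at 23.3. Of 10 granulocyte markers 7 passed the blank limit and 3 the chemoreceptor limit, Csf3r at 105, Ly6g at 66.7 and S100a8 at 60.2, with 4 more between the limits. The 3 not over the blank limit were Camp at 22.4, S100a9 at 19.4 and Mpo at 18.6, and the list ranged from 18.6 to 105. Of 8 colon epithelium markers 5 passed both limits, in a range from 18.5 to 123, with Cdx1 at 123, Lgals4 at 121, Muc2 at 84.7 and Cdx2 at 62.0, while Epcam, Krt20 and Cdh17 read 22.3, 19.5 and 18.5 and did not pass. Of 7 thyroid markers 2 passed the blank limit and 1 the higher limit, Foxe1 at 61.4, in a range from 18.1 to 61.4, and Pax8, Slc5a5 and Nkx2-1 read 20.6, 20.4 and 19.7. The 8 kidney and the 8 inner ear markers each had 5 over the blank limit and 0 over the higher one, in ranges from 18.9 to 44.8 and from 20.0 to 44.2, with the kidney gene Umod at 18.9 and the inner ear gene Oc90 at 20.9 under the blank limit. The part of any other cell type in the readings of the oxidase genes was not tested.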

How the data were processed

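RNA from 1 culture of parental RAW264.7 cells was amplified to amino allyl RNA and coupled to Cy5, per the labels' protocols. The deposited scanner file gives spot and local background intensity as medians from a scan at 3 gains, per the file headers. A second intensity table from the authors is deposited as processed values, with no method in the labels. Its brighter values followed the spot median minus the blank mean, times 0.486, and its 6784 empty cells had signals of 22.97 or lower. Its median is 25. In the sources used here no image software is named.

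Of 27456 spots, 0 carried a bad flag. Of 23473 gene probes, 20690 had 1 symbol in the platform annotation, 0 had several and 2783 had none, and 20556 had an identifier in a RefSeq gene table (GRCm38.p6, used for names and neighbours). The blank limit used 2464 of 2736 blanks (5% left out at each end, mean 20.6, SD 1.18). A gene took its highest probe. Promoters came from a RefSeq table of the same build. Members, gene lists and the chemoreceptor limit were chosen with earlier results of these data known. Any gene of the 6 lists around the oxidase could be named, and of each marker list up to 4 genes over the chemoreceptor limit and 4 not over the blank limit, in alphabetical order. Alternatives covered the limit, background correction (normexp in limma 3.58.1, offset 50) and the probe rule. Python 3.11.15, scipy 1.17.1 and R 4.3.3 were used, and the calling and motif steps were tested on simulated data. Intervals are exact Clopper-Pearson 95% intervals.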

Additional observations from a re-analysis of the deposited data

How the results depend on the processing

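With 1 array, no spread between samples and no paired or left-out analysis was possible. Of 94 alternative values for counts and group medians, 86 stayed within 1.5 times the main value and 8 moved further. Some of the 86 could hardly have moved. Such were the counts in the authors' table, the member counts with the lowest probe and the phagocyte count without Rac2, from 5 to 4. The 94 leave out the chemoreceptor limit for the 6 lists around the oxidase, where partners went from 12 to 6. They also leave out the family of 9 genes, which went from 5 over the limit to 3, 2 or 0 in some settings. At the chemoreceptor limit, non-phagocyte members over the limit went from 1 to 0 and all named genes from 14070 to 8258, by the construction of a higher limit. The phagocyte median, 69.6 times the median of all genes, became 182 with local background subtracted, 34.4 with normexp and 149 in the authors' table. The non-phagocyte median, 0.52 times that of all genes, became 0.054, 0.83 and 0 in these settings, the last because empty cells count as 0; these multiples set different probes side by side, 3 of the 4 under the blank limit, and are no fold between transcripts. Subtraction and the table lower dim readings and an offset of 50 raises them by construction. Among 78 alternative values for single members 13 moved by over 1.5 times, with local background subtracted or normexp, and 0 changed side of the limit. The 78 leave out the chemoreceptor limit, where Noxo1 did change side. They also leave out the authors' table for Nox1, Nox4 and Duox2, whose cells are empty there. Of the 10 alternative settings, the lowest probe could change no member, each having 1 probe, and the authors' table is a scaling of the same readings emptied at nearly the blank limit. In the other 8 the 5 phagocyte subunits stayed over the limit and Nox1, Nox4 and Duox2 stayed under it, while Noxo1 was under the chemoreceptor limit and at 1.02 to 1.19 times the limit in the rest. Spot means could not be tried, since the file analysed holds medians.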

Other observations

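The Duox2 spot lies beside the brightest neighbour of the 4 non-phagocyte genes, at 3235, and its local background, 21.6, was higher than the median of 17.1 around the blanks. Nox4, at a local background of 20.3, was also above that median, and spot minus local background was -0.329 for Duox2 and 0.0696 for Nox4.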
